A study of Mus musculus with 12 samples.

Results

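The genes described here encode the receptors through which leukocytes bind the Fc part of IgG and IgE, together with the adaptors that signal for them. They are Fcgr1, Fcgr3 and Fcgr4 (activating IgG receptors), Fcgr2b (the inhibitory IgG receptor), Fcer1g (the shared signalling chain), Tyrobp (a related adaptor), Fcer2a (the low-affinity IgE receptor CD23) and Fcgrt (the neonatal Fc receptor). They were chosen by name, as every probe set of the array whose annotation gives a single symbol equal to a member. This gave 8 genes with 14 probe sets, of 18193 genes with a single symbol and 45101 probe sets in all. Lung RNA of male A/J mice was measured on Affymetrix whole-genome mouse arrays in 4 groups of 3 arrays, on day 4 after PM, and the methods give 3 animals per group. Labels give an age of 8 to 10 weeks.

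PBS/PBS mice received the vehicle alone. Mice of the OVA label were sensitized with ovalbumin at 0.4 mg/kg by the intraperitoneal route on day 0 and were challenged through the trachea with 30 mg/kg on day 14. Mice of the PM label aspirated 50 µl of a 10 mg/ml suspension of ambient Baltimore particles, with PBS in place of OVA according to the methods. OVA/PM mice received both, the particles following the challenge. Allergic inflammation in this model comes from 1 challenge in 1 inbred strain, and the whole lung was homogenized.

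The names OVA and PM carry a doubt that bears on every direction given for them. In the study's own table of regulated genes, the changes listed under OVA follow the arrays labelled PM, and those listed under PM follow the arrays labelled OVA. The numbers of regulated genes differ in the same way. The study reports more genes regulated by PM than by OVA, although its threshold for PM was stricter. Here limma called 16 probe sets against PBS/PBS in the arrays labelled PM and 4326 in those labelled OVA. Nothing in the labels settles which is right. The groups are therefore called the arrays labelled OVA and the arrays labelled PM throughout, and each statement about either rests on its label. This doubt concerns the names OVA and PM. The study's table lists no values for OVA/PM, so that name could not be checked by it. PBS/PBS and OVA/PM were taken as labelled.

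Fc receptors link antibodies to cells. IgG bound to antigen cross-links the activating receptors, whose shared chain carries an activation motif (ITAM) that recruits Syk and leads to phagocytosis, oxidant release and cytokine secretion. Fcgr2b carries an inhibitory motif (ITIM) that recruits phosphatases and sets the threshold of that response, so that macrophages and other myeloid cells are governed by the ratio of both kinds, while B cells carry Fcgr2b alone among the IgG receptors. In allergic lungs, IgE acts through the high-affinity receptor of mast cells and basophils and through CD23, which is found mainly on B cells.

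Fcgr2b, Fcgr4 and Fcgr3 follow each other on chromosome 1, where Fcer1g also lies, while Fcgr1 is on chromosome 3, Fcer2a on chromosome 8, and Fcgrt and Tyrobp are on chromosome 7. The promoters of the 4 IgG receptor genes are shown because these genes were raised together in OVA/PM lungs. The 100 bases before the first listed start site are given 5′ to 3′ on the gene's strand, from RefSeq on GRCm38.p6, with capitals marking TTCCTC. This is the opposite-strand form of GAGGAA, the core bound by PU.1 (Spi1), a transcription factor of myeloid and B cells. The windows lie at chr3:96293970-96294069 (Fcgr1, minus strand), chr1:171059404-171059503 (Fcgr3, minus strand), chr1:171018826-171018925 (Fcgr4, plus strand) and chr1:170976072-170976171 (Fcgr2b, minus strand).
Fcgr1: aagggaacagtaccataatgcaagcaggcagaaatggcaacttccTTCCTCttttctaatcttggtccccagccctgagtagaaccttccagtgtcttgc
Fcgr3: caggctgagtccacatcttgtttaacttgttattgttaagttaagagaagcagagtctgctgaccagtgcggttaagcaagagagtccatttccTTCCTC
Fcgr4: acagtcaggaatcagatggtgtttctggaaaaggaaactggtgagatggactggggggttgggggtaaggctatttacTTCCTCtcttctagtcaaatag
Fcgr2b: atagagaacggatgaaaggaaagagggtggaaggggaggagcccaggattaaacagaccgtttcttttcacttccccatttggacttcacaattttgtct

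Each of the 3 activating receptor genes held 1 such match close to its start. The first base of the match lay 55 bases before the start of Fcgr1, 22 before that of Fcgr4 and 6 before that of Fcgr3 (15 before a second listed start). In the full 250 bases searched on both strands, GAGGAA occurred in 4 of the 10 listed promoters, which belong to 3 of the 7 members with an entry. No match was found in the windows of Fcgr2b, Fcer1g, Fcer2a or Fcgrt. Tyrobp has no entry in the promoter table. Of all 32851 listed promoters, 23.3% held the letters, so a match is common and is given as a description.

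Levels are GCRMA intensities on the log2 scale, on which 1 unit is a doubling. A probe set was tested where every array of at least 1 compared group reached 4.93, the median of all values. Of the 14 probe sets, 12 passed in each comparison but PM against PBS/PBS, where 10 passed. One Fcgr2b probe set lay at 2.11 or less on every array, and a second Fcgr1 probe set reached 5.78 at most and was never tested. The second Fcer2a probe set and Fcgr4 were the exceptions in the arrays labelled PM. Since a gene high in 1 group alone could pass, the counts below describe the members and support nothing by themselves. Each gene is described by its probe set with the highest mean.

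In OVA/PM lungs, 6 of the 8 genes rose against PBS/PBS: Fcgr1, Fcgr2b, Fcgr3, Fcgr4, Fcer1g and Fcer2a. Tyrobp and Fcgrt did not pass the test. The same 6 genes were called in the arrays labelled OVA against PBS/PBS, and none of the 7 tested was called in the arrays labelled PM. Over all genes tested, limma called 13.9% higher and 9.74% lower in OVA/PM, and 11.3% higher and 7.58% lower in the arrays labelled OVA. In the arrays labelled PM it called 0.0986% of genes in either direction. The median log2 change of the members was 1.85 in OVA/PM, 2.05 in the arrays labelled OVA and 0.28 under labelled PM, and the median over all genes tested lay between 0.00 and 0.03 in these comparisons. The 3 comparisons share the PBS/PBS arrays.

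The calls in OVA/PM were the steadier ones. With single arrays left out, 4 to 6 genes were called there, and Fcgr1, Fcgr2b, Fcgr3 and Fcer2a were called each time. In the arrays labelled OVA the count of 6 became 3 without PBS/PBS replicate 1, 1 without OVA replicate 1, and 0 without PBS/PBS replicate 2 or OVA replicate 3. There the calls of Fcgr1, Fcgr4 and Fcer1g were each lost without 4 of the 6 arrays, those of Fcgr3 and Fcer2a without 3, and that of Fcgr2b without 2. The log2 difference between the 3′ and 5′ probe sets of Actb, a sign of RNA quality, was 0.41 to 0.50 in PBS/PBS, 0.43 to 0.57 under labelled OVA, 0.48 to 0.90 under labelled PM and 0.61 to 0.81 in OVA/PM. It thus separated OVA/PM from PBS/PBS, as the receptors did, and reached its highest value in the arrays labelled PM, where no member was called. Its part in the changes was not tested.

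**Figure D1:**
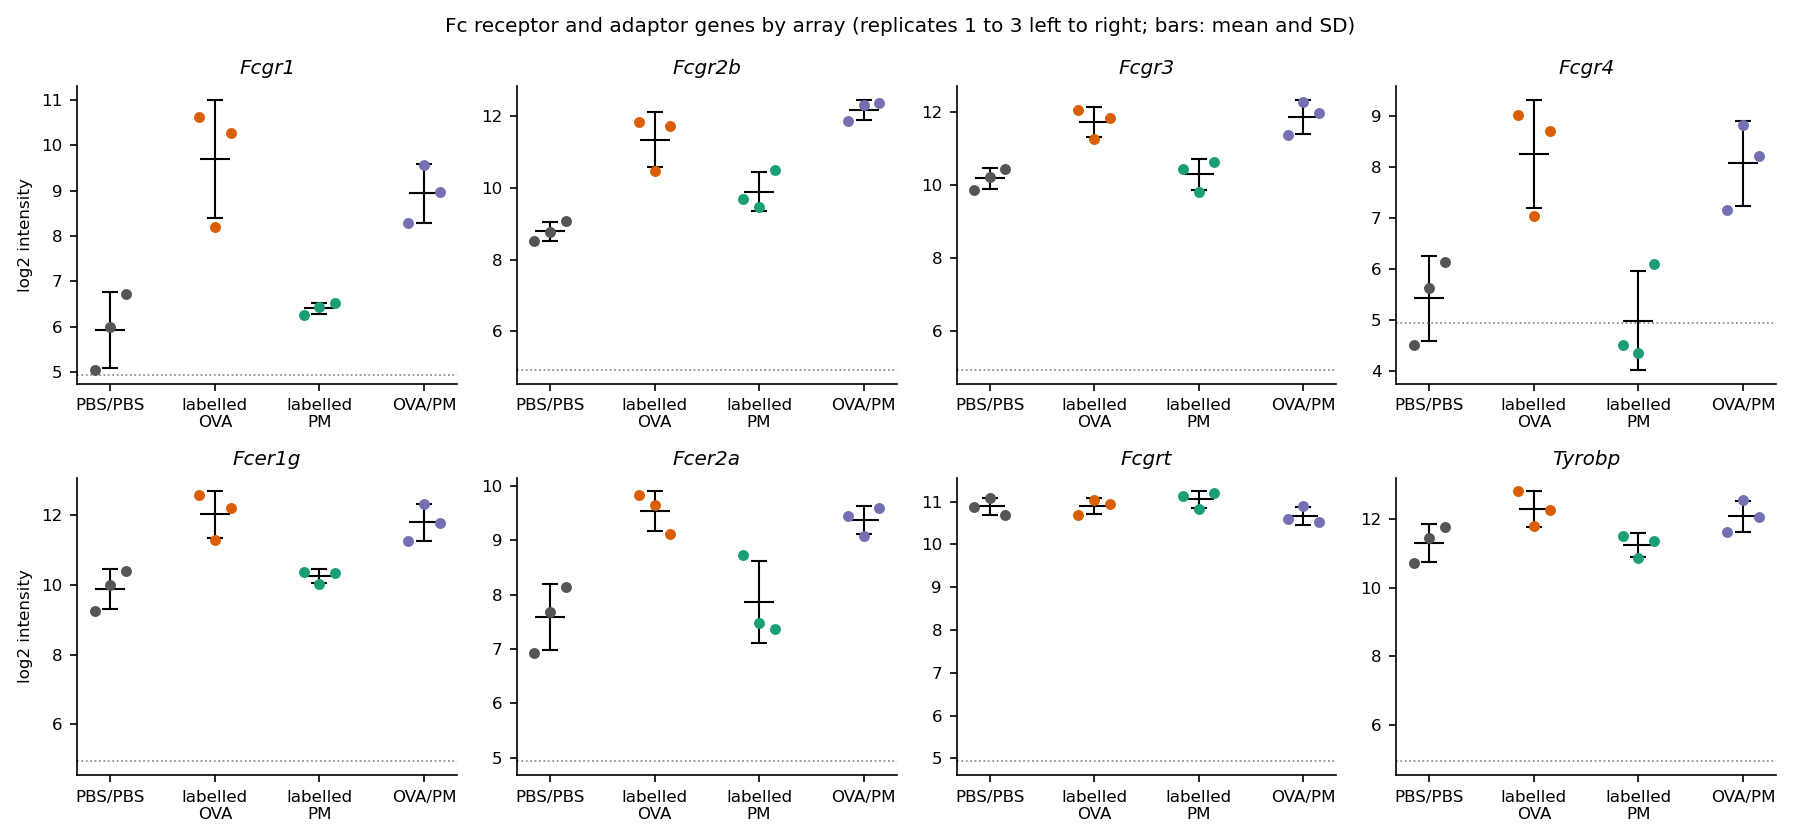
Log2 intensity of each gene on each of the 12 arrays, in 4 groups of 3 (points are arrays, bars the mean and SD, the dotted line the level of 4.93). For Fcgr1, Fcgr2b, Fcgr3, Fcgr4, Fcer1g and Fcer2a every OVA/PM and labelled OVA array lay above every PBS/PBS array, whereas Fcgrt overlapped in all groups.

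Fcgr1 encodes the high-affinity receptor for IgG (CD64) of monocytes and macrophages. Its levels were 5.05, 5.99 and 6.72 in PBS/PBS, 6.27, 6.43 and 6.52 in the arrays labelled PM, 8.28, 9.57 and 8.97 in OVA/PM, and 10.62, 8.21 and 10.27 in the arrays labelled OVA. PBS/PBS and labelled PM overlapped, both lay below the other groups, and OVA/PM overlapped with labelled OVA. The log2 fold change was 3.02 in OVA/PM (SE 0.49, adjusted p = 0.00941 from limma) and 3.78 in the arrays labelled OVA (SE 0.73, adjusted p = 0.0244). As ratios of linear means these are 7.77 ± 5.35-fold and 15.4 ± 12.9-fold (SD propagated from the arrays, n = 3 per group), so the factor itself is poorly fixed. In the arrays labelled PM the change was 0.49 (SE 0.40), which did not pass.

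Fcgr3 and Fcgr4 encode the other activating IgG receptors of myeloid cells, Fcgr3 being also carried by natural killer cells and mast cells. Fcgr3 stood at 9.88, 10.23 and 10.46 in PBS/PBS, 10.44, 9.82 and 10.64 in the arrays labelled PM, 12.08, 11.27 and 11.85 in those labelled OVA, and 11.38, 12.30 and 11.99 in OVA/PM. It was thus readily measured in control lung, and its log2 change was the smallest of the 6 called genes against PBS/PBS. It rose by 1.70 on the log2 scale in OVA/PM (SE 0.26, adjusted p = 0.00827, 3.31-fold) and by 1.54 in the arrays labelled OVA (SE 0.25, adjusted p = 0.0170, 2.95-fold).

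Fcgr4 lay near the tested level in control lung. Its values were 4.51, 5.62 and 6.13 in PBS/PBS and 4.51, 4.34 and 6.10 in the arrays labelled PM, where it was not tested against PBS/PBS. In contrast, it reached 7.16, 8.82 and 8.20 in OVA/PM and 9.01, 7.03 and 8.70 in the arrays labelled OVA. The log2 changes against PBS/PBS were 2.64 (SE 0.54, adjusted p = 0.0199) and 2.83 (SE 0.63, adjusted p = 0.0333). The call in OVA/PM was lost without PBS/PBS replicate 2, OVA/PM replicate 2 or OVA/PM replicate 3 (adjusted p up to 0.0603), and that in the arrays labelled OVA without PBS/PBS replicate 1 or 2 or OVA replicate 1 or 3 (up to 0.115).

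Fcgr2b, like Fcgr3, had its highest mean level in OVA/PM. Its array values were 8.53, 8.75 and 9.06 in PBS/PBS, 9.68, 9.47 and 10.49 in the arrays labelled PM, 11.82, 10.45 and 11.72 in those labelled OVA, and 11.84, 12.31 and 12.35 in OVA/PM. It was the only member whose labelled PM arrays all lay above the PBS/PBS arrays. The log2 change against PBS/PBS was 3.39 in OVA/PM (SE 0.19, adjusted p = 0.000350, 10.5 ± 2.75-fold) and 2.55 in the arrays labelled OVA (SE 0.38, adjusted p = 0.0153, 6.28 ± 2.97-fold).

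In the arrays labelled PM, Fcgr2b differed by 1.10 from PBS/PBS (SE 0.29, 95% interval 0.40 to 1.80) with an unadjusted p of 0.00804 and an adjusted p of 0.411 from limma, so it was not called. The other 3 measured Fcgr2b probe sets gave differences of 1.12, 0.78 and 0.81, each without overlap of the arrays and each short of the threshold (adjusted p = 0.347, 0.562 and 0.445). All 4 carry a suffix that marks probes shared between transcripts. The main probe set, with an s in its suffix, may share probes with transcripts of other genes. The one with an x in its suffix may also cross-match other genes. Since they read the same RNA, they are not independent replicates.

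**Figure D2:**
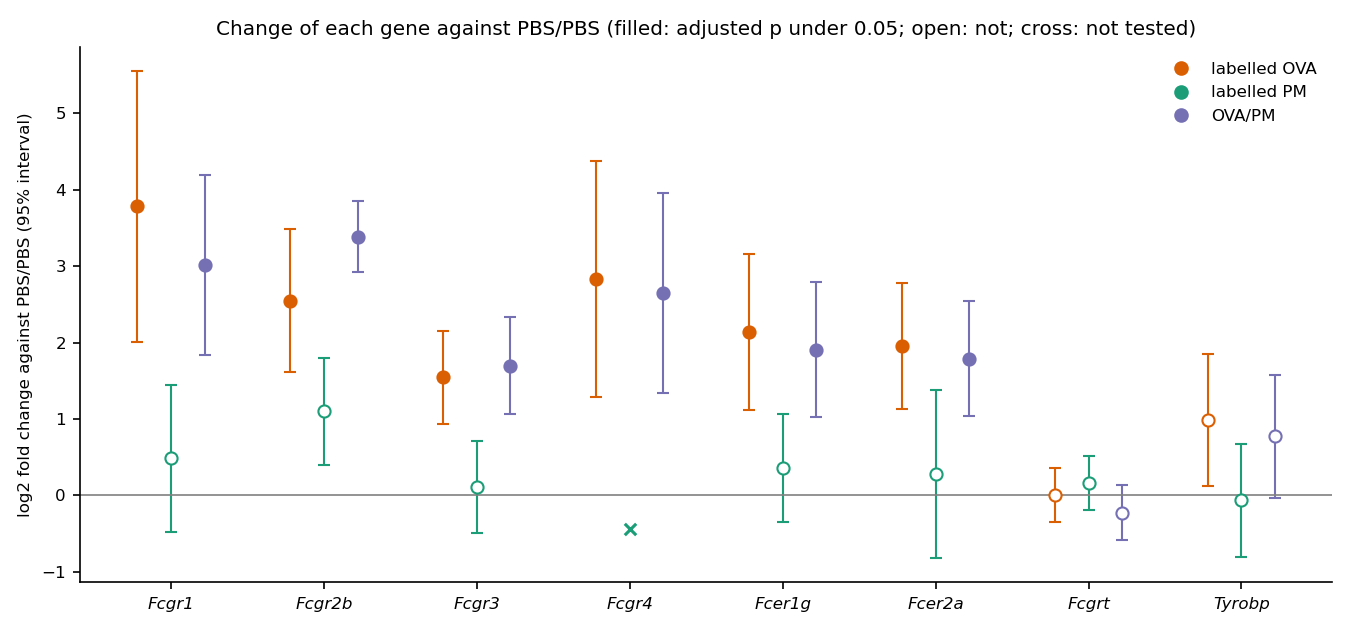
Log2 fold change of each gene against PBS/PBS in the arrays labelled OVA, labelled PM and OVA/PM, with 95% intervals from limma (filled points passed an adjusted p of 0.05, open points did not, and the cross is an untested difference of means). Fcgr2b had the largest change in OVA/PM at 3.39, Fcgr1 the largest in the arrays labelled OVA at 3.78, and none passed in the arrays labelled PM.

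Within an array, the relation of Fcgr3 to Fcgr2b differed from that in control lung in all exposed groups. Fcgr3 lay above Fcgr2b by 1.41 on average in PBS/PBS, 0.40 under labelled OVA and 0.42 under labelled PM. In OVA/PM the mean difference was -0.28. The log2 difference Fcgr3 minus Fcgr2b, set to the PBS/PBS mean, varied by -0.06 to 0.07 among the PBS/PBS arrays. It was shifted by -1.27 to -0.59 under labelled OVA, by -1.27 to -0.65 under labelled PM and by -1.87 to -1.42 in OVA/PM, so no exposed array reached the control range. A shift below 0 means that Fcgr2b gained more than Fcgr3, and this direction is the same whichever way the names OVA and PM are read. With each of the other 3 Fcgr2b probe sets, with an offset of 16 on the linear scale and with a further quantile normalization, all 9 exposed arrays again lay below the PBS/PBS arrays. The mean shift in OVA/PM was then between -0.79 and -1.69. It is given as a description, without a test.

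The remaining activating genes did not share one relation to Fcgr2b. Fcgr1 minus Fcgr2b was shifted by 1.23 on average in the arrays labelled OVA, above all PBS/PBS arrays, but overlapped with PBS/PBS in the arrays labelled PM (-0.61) and in OVA/PM (-0.37). The separation in the arrays labelled OVA was lost with 1 other Fcgr2b probe set and with the offset. Fcgr4 minus Fcgr2b lay below PBS/PBS in the arrays labelled PM (-1.54), a separation lost with 2 other Fcgr2b probe sets. For Fcgr4, 2 of the 3 arrays labelled PM and 1 PBS/PBS array were under the tested level, so the size of this shift is poorly fixed. In OVA/PM the difference Fcgr4 minus Fcgr2b overlapped with PBS/PBS except with the offset, and under labelled OVA it overlapped in each setting. Fcer1g minus Fcgr2b lay below PBS/PBS in OVA/PM under each of these settings (mean shift -0.58 to -1.48). It also lay below PBS/PBS in the arrays labelled PM (-0.74), a separation lost with 2 other Fcgr2b probe sets. Under labelled OVA it overlapped with PBS/PBS (-0.41) except with 1 other Fcgr2b probe set, where it lay below.

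**Figure D3:**
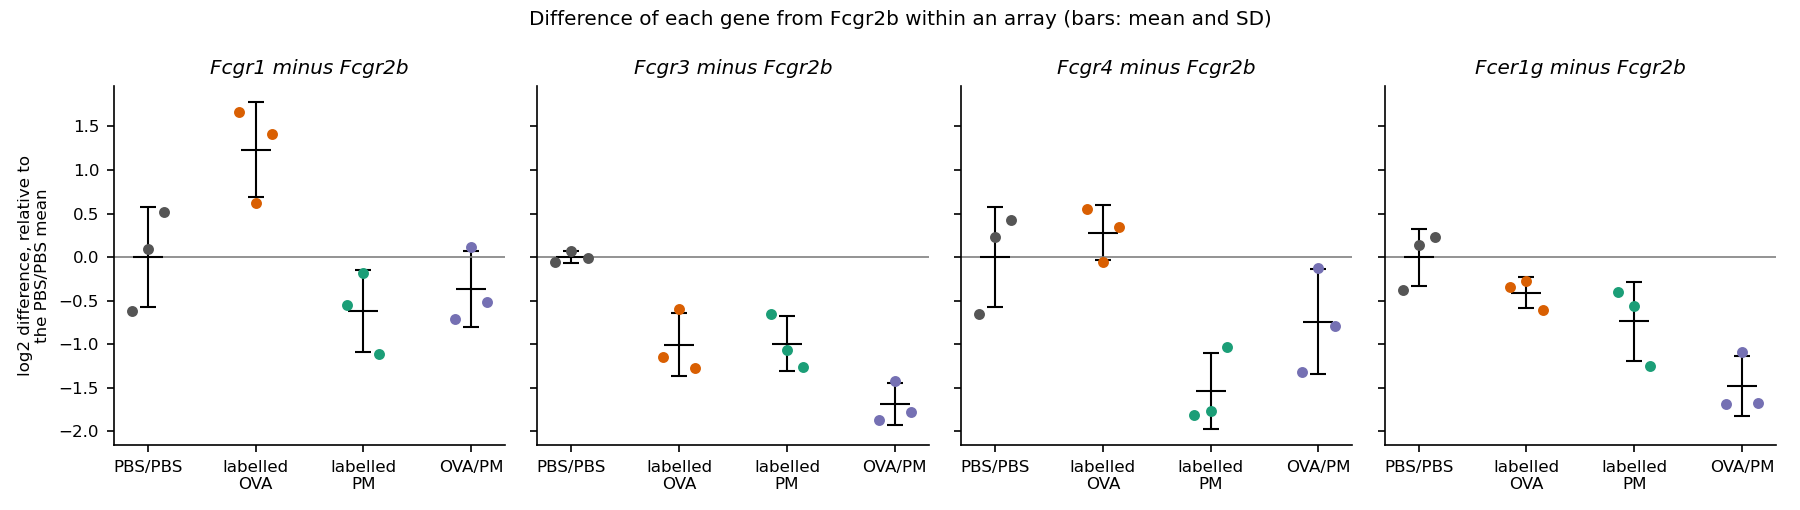
Log2 difference of Fcgr1, Fcgr3, Fcgr4 and Fcer1g from Fcgr2b within each array, relative to the PBS/PBS mean (points are arrays, bars the mean and SD). For Fcgr3 all 9 exposed arrays lay below the PBS/PBS arrays, which spanned -0.06 to 0.07.

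Fcer1g encodes the signalling chain that the activating IgG receptors and the high-affinity IgE receptor need at the cell surface. Its levels were 9.26, 10.00 and 10.41 in PBS/PBS, 10.39, 10.02 and 10.35 in the arrays labelled PM, 11.27, 12.33 and 11.79 in OVA/PM, and 12.58, 11.29 and 12.22 in the arrays labelled OVA. The latter groups lay above the former without overlap. It rose by 1.91 on the log2 scale in OVA/PM (SE 0.37, adjusted p = 0.0163) and by 2.14 in the arrays labelled OVA (SE 0.42, adjusted p = 0.0252). Without PBS/PBS replicate 2 the adjusted p in OVA/PM was 0.0537, and the call in the arrays labelled OVA was lost without PBS/PBS replicate 1 or 2 or OVA replicate 1 or 3 (adjusted p up to 0.0949).

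Tyrobp (DAP12), the adaptor of TREM receptors and of several myeloid lectins, had levels of 10.71, 11.44 and 11.78 in PBS/PBS and 11.52, 10.86 and 11.36 in the arrays labelled PM. It had levels of 11.64, 12.54 and 12.06 in OVA/PM and 12.82, 11.80 and 12.27 in the arrays labelled OVA. OVA/PM overlapped with PBS/PBS, whereas the lowest array labelled OVA lay just above it. The log2 changes were 0.77 (95% interval -0.03 to 1.58, adjusted p = 0.146 from limma) and 0.99 (0.12 to 1.85, adjusted p = 0.0978), and neither passed. SAM, the test named in the methods, called both (q = 0.0437 and 0.0179).

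Fcer2a encodes CD23, a lectin that binds IgE with low affinity and is found mainly on B cells. It stood at 6.93, 7.68 and 8.13 in PBS/PBS, 8.73, 7.48 and 7.37 in the arrays labelled PM, 9.44, 9.08 and 9.59 in OVA/PM, and 9.83, 9.65 and 9.12 in the arrays labelled OVA. It rose by 1.79 on the log2 scale in OVA/PM (SE 0.31, adjusted p = 0.0119) and by 1.95 in the arrays labelled OVA (SE 0.34, adjusted p = 0.0198), 3.30-fold and 3.73-fold as linear ratios. Its second probe set was under the tested level on every PBS/PBS array and was called in both, at least 1.39-fold and at least 2.27-fold higher. The high-affinity IgE receptor could not be set beside it, since its genes Fcer1a and Ms4a2 lay under the level on all 12 arrays.

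Fcgrt encodes the heavy chain of the neonatal receptor, which protects IgG from breakdown and carries it across epithelium and endothelium. It was the steadiest member, at 10.88, 11.09 and 10.69 in PBS/PBS, 10.69, 11.05 and 10.94 under labelled OVA, 11.13, 10.83 and 11.20 under labelled PM, and 10.58, 10.89 and 10.51 in OVA/PM. All neighbouring groups overlapped. The 95% interval of the log2 change against PBS/PBS ran from -0.35 to 0.36 in the arrays labelled OVA and from -0.59 to 0.14 in OVA/PM, so a doubling or a halving lies outside either interval.

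Comparing OVA/PM with the arrays labelled OVA, limma called none of the 8 genes, none had an unadjusted p under 0.05, and SAM also called 0. Of all genes tested 0.159% were called in either direction. Among the main probe sets Fcgr2b came closest, with a log2 difference of 0.84 (95% interval -0.07 to 1.74, adjusted p = 0.577). Its lowest OVA/PM array at 11.84 lay just above the highest array labelled OVA at 11.82. With the other Fcgr2b probe sets the arrays overlapped. The second Fcer2a probe set was lower in OVA/PM without overlap (-0.64, adjusted p = 0.562 from limma). The main Fcer2a probe set overlapped (-0.16). Fcgr1 differed by -0.76 (95% interval -2.36 to 0.84), an interval that leaves room for large differences in either direction.

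Against the arrays labelled PM, 6 of the 8 genes were higher in OVA/PM, beside 9.13% of all genes tested called higher and 6.77% called lower. They were the same 6 genes as against PBS/PBS. The largest change was that of Fcgr4 (3.08, SE 0.58, adjusted p = 0.0205), and the smallest that of Fcer2a (1.51, SE 0.37, adjusted p = 0.0440). Only 2 genes remained called without PM replicate 2 or without OVA/PM replicate 3, and 3 without OVA/PM replicate 2, whereas Fcgr1 (2.53, SE 0.31) and Fcgr2b (2.29, SE 0.29) were called whichever array was left out.

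Between the single exposures, 4 of the 8 genes were higher in the arrays labelled OVA than in those labelled PM, beside 4.23% of all genes tested. These were Fcgr1 (3.29, SE 0.61), Fcgr3 (1.43, SE 0.29), Fcgr4 (3.27, SE 0.67) and Fcer1g (1.78, SE 0.33), with adjusted p between 0.0446 and 0.0497 from limma. All 4 calls stand close to the threshold, and 0 remained without OVA replicate 1, OVA replicate 3 or any 1 of the PM arrays. Fcgr2b (1.45, SE 0.44, adjusted p = 0.0903) overlapped between the groups by this probe set, whereas with its other 3 measured probe sets every array labelled OVA lay above the arrays labelled PM (1.58, 1.42 and 1.21, adjusted p from 0.0716 to 0.0882), and none passed. In a fit of all 4 groups, the interaction of both exposures passed for 0 of the 8 members by limma, with 0 at an unadjusted p under 0.05 and 0.0350% of all genes called. SAM was not run on it. Fcgr1 had the estimate farthest from 0, at -1.25 (95% interval -3.15 to 0.65).

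The genes that transmit the signal moved in the same groups. Of 27 listed genes of ITAM and ITIM signalling, 23 had a probe set with a single symbol and all were tested. Over all genes tested, 13.9% were called higher against PBS/PBS in OVA/PM and 11.3% in the arrays labelled OVA. Of this list 18 rose and 0 fell against PBS/PBS in OVA/PM, with a median log2 change of 1.33. In the arrays labelled OVA 9 of the list rose and 0 fell, with a median of 1.08. In the arrays labelled PM 0 were called, and the median was 0.19. The 3 with the lowest adjusted p in OVA/PM were Cybb, the catalytic subunit of the phagocyte oxidase (2.26, SE 0.28), Ncf1, a cytosolic subunit of the same enzyme (1.71, SE 0.25), and Was, which drives actin assembly at the phagocytic cup (1.91, SE 0.30). Against the arrays labelled PM, 9.13% of all genes tested were called higher in OVA/PM. Of this list 19 rose there, led by Nckap1l, Cybb and Lcp2 (1.07, 1.91 and 1.65). The last count was 15 to 17 whichever array was left out, whereas the counts against PBS/PBS rest on single arrays. The count of 9 became 3 without PBS/PBS replicate 1, 1 without PBS/PBS replicate 2 or OVA replicate 1, and 0 without OVA replicate 3, and the count of 18 became 8 without PBS/PBS replicate 2 and 9 without any 1 of the OVA/PM arrays.

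A list of 20 genes held mainly receptors that pair with Tyrobp or Fcer1g, with Pirb and the integrin chains Itgam and Itgb2 beside them. Of these 20 genes 19 had a probe set. In OVA/PM and in the arrays labelled OVA against PBS/PBS, 14 were tested. In each comparison 6 rose and 0 fell, with median log2 changes of 1.49 and 1.46, and in the arrays labelled PM 0 of 11 were called. Over all genes tested, 13.9% were called higher in OVA/PM and 11.3% in the arrays labelled OVA. Trem2, a lipid-sensing receptor of macrophages, lay under the tested level on all PBS/PBS arrays and was at least 9.50-fold higher in OVA/PM and at least 7.12-fold higher in the arrays labelled OVA. Clec5a, a lectin of myeloid cells, was at least 6.35-fold and at least 7.48-fold higher. Clec4n (Dectin-2), a receptor for fungal sugars, rose by 2.98 (SE 0.38) and 3.18 (SE 0.46) on the log2 scale. The count of 6 in the arrays labelled OVA became 3 without PBS/PBS replicate 1 or OVA replicate 1, 2 without PBS/PBS replicate 2 and 1 without OVA replicate 3, whereas that in OVA/PM was 6 to 8.

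Clec4e (Mincle) and Clec4d, which signal through Fcer1g, set the arrays labelled PM furthest apart. Clec4e lay under the level on every array labelled PM and was at least 61.8-fold higher in OVA/PM and at least 62.0-fold higher in the arrays labelled OVA, and Clec4d was 53.8-fold and 49.4-fold higher. Against the arrays labelled PM, 11 of the 14 tested genes of the pairing receptor list rose in OVA/PM, beside 9.13% of all genes tested. The count was 7 without PM replicate 2 or OVA/PM replicate 2, and 5 without OVA/PM replicate 3. With labelled OVA in place of OVA/PM 6 of 13 rose, beside 4.23% of all genes tested. The count of 6 became 0 when OVA replicate 1, OVA replicate 3 or PM replicate 2 was left out. Clec4e and Clec4d lost their calls there in each of these cases and with no filter, and Clec4d also without PM replicate 3 (adjusted p up to 0.148).

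Other Fc-binding proteins followed more than one pattern. Of 14 listed, 12 had a probe set and 9 were tested. Against PBS/PBS 4 rose and 0 fell both in OVA/PM and in the arrays labelled OVA, beside 13.9% and 11.3% of all genes tested called higher. The count in OVA/PM was 3 without PBS/PBS replicate 2 and 7 without PBS/PBS replicate 3. Fcgbp, a secreted IgG-binding protein of mucus, had mean log2 levels of 6.73 in PBS/PBS, 7.05 under labelled OVA, 9.71 under labelled PM and 11.03 in OVA/PM. It rose by 4.30 in OVA/PM against PBS/PBS (SE 0.13, adjusted p = 3.25e-05, 19.7-fold) and by 3.98 against the arrays labelled OVA (SE 0.15, adjusted p = 0.000234). It was lower in the arrays labelled OVA than in those labelled PM, with a log2 difference of -2.66 (adjusted p = 0.0338), the opposite of the activating receptors. In the arrays labelled PM its difference from PBS/PBS was 2.98 (SE 0.36, adjusted p = 0.0846), which did not pass with limma. It was called by SAM (q = 0.0445), by limma in the fit of all 4 groups (adjusted p = 0.00183), with the stricter filter (0.0421) and without PM replicate 3 (0.0234). It was not called by limma with no filter (0.247), the replicate block (0.216), the offset (0.0868) or further quantile normalization (0.0890). Leaving out any other single array also gave no call (0.194 to 0.336).

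Pigr, which carries polymeric IgA and IgM across epithelium, rose by 2.75 in OVA/PM against PBS/PBS (SE 0.23) and by 1.54 against the arrays labelled PM (SE 0.19). Lgals3, a lectin that binds IgE among other glycoproteins, rose by 1.53 in OVA/PM (SE 0.11) and by 1.31 in the arrays labelled OVA (SE 0.15). Trim21, a cytosolic antibody receptor, and Fcrls, an Fc receptor-like gene of macrophages, rose by 0.74 and 0.71 in the arrays labelled OVA. Fcrl1, a B cell member of that family, rose by 1.86 in OVA/PM against the arrays labelled PM. In the arrays labelled OVA, 1 gene of this list was called higher without PBS/PBS replicate 1, PBS/PBS replicate 2 or OVA replicate 1. None was called there without OVA replicate 3.

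Of the antibody ligands, 4 of 11 listed genes had a probe set with a single symbol. In OVA/PM 3 of them rose against PBS/PBS and in the single exposures 0 were called. Jchain, which joins polymeric IgA and IgM, rose by 2.11 (SE 0.28), Igha by 1.48 (SE 0.19) and Ighm by 1.23 (SE 0.22). Jchain was also higher in OVA/PM than in the arrays labelled OVA by 2.02 (SE 0.21, adjusted p = 0.0481), a call lost without 5 of the 6 arrays (all but OVA replicate 1). Ighm was lower in the arrays labelled OVA than in those labelled PM (log2 difference -1.15, SE 0.20). Ighg3, an IgG chain, rose by 1.75 in OVA/PM against the arrays labelled PM (SE 0.31), a call lost without any 1 of the PM arrays or OVA/PM replicate 3 (adjusted p up to 0.0638).

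**Figure D4:**
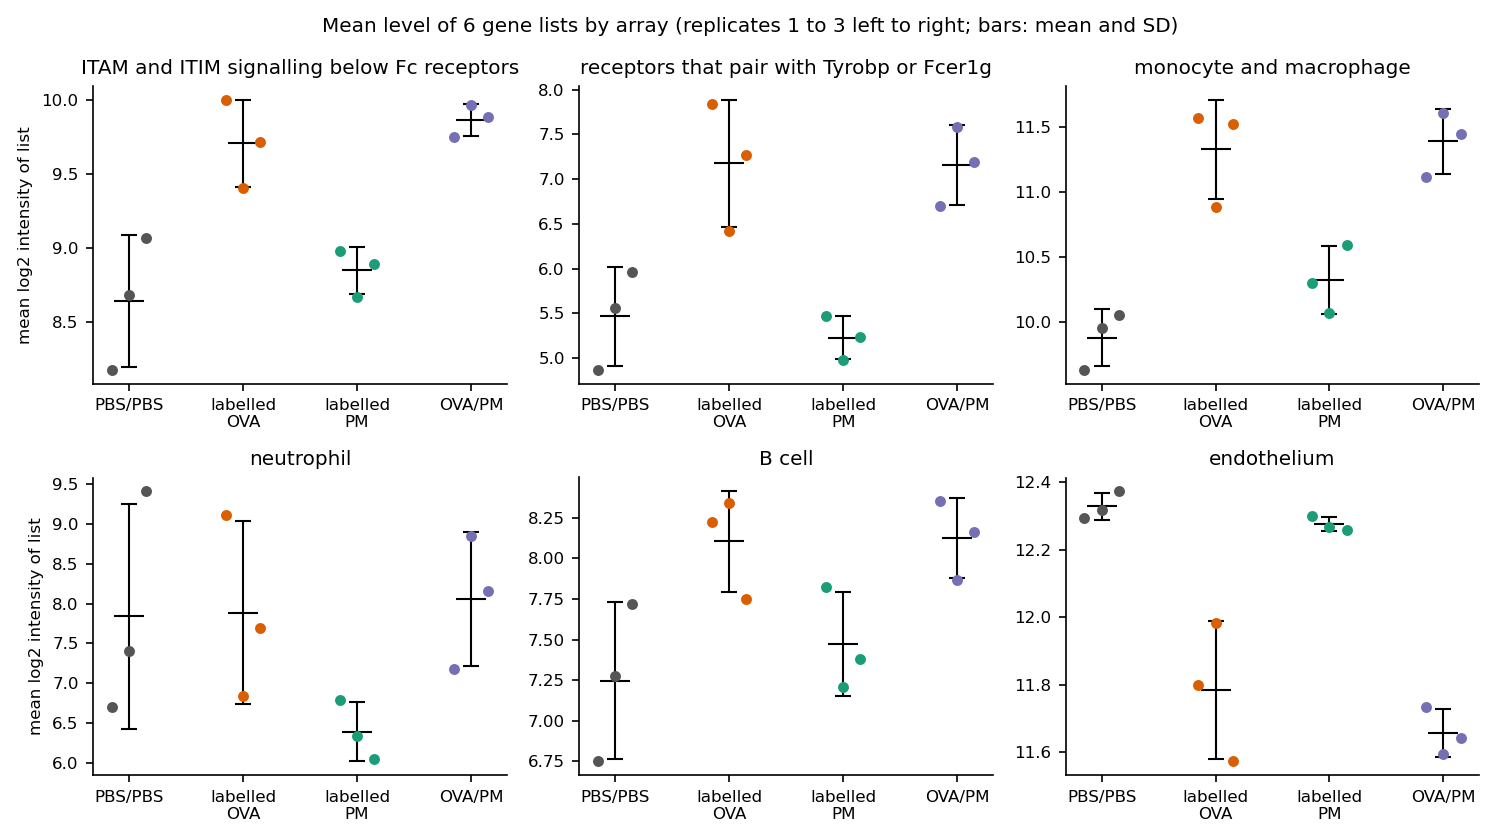
Mean log2 intensity of 6 gene lists on each array (points are arrays, bars the mean and SD). Lists of signalling genes, pairing receptors and monocyte and macrophage markers were higher under labelled OVA and in OVA/PM than in PBS/PBS and labelled PM. The endothelial markers were lower there, and the neutrophil markers of each exposed group overlapped with PBS/PBS.

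Markers of some of the cells that carry these receptors rose in the same groups, and those of others did not. In homogenized lung, more cells of a type and more RNA per cell cannot be told apart. Of 11 monocyte and macrophage markers, 7 rose and 0 fell in OVA/PM, 6 rose and 0 fell in the arrays labelled OVA and 0 were called in those labelled PM. Their summed linear intensity lay between 55335 and 57556 in PBS/PBS and between 54103 and 61351 under labelled PM, and reached 71903 to 84969 under labelled OVA and 65669 to 82910 in OVA/PM. None lay under the tested level. Cd68 rose by 2.04 (SE 0.33) in OVA/PM and C1qa by 1.57 (SE 0.14). The part of these markers in the receptor changes was not tested.

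Alveolar macrophage markers differed in pattern between their summed intensity and their mean log2 level. Of 8 tested, 2 rose (Marco and Chil3) and 1 fell (Car4) in OVA/PM, 2 rose (Marco and Plet1) in the arrays labelled OVA and 0 were called under labelled PM. Their summed intensity lay between 28351 and 40383 in PBS/PBS, 26675 and 46586 under labelled OVA, 36166 and 46104 under labelled PM, and 36970 and 40832 in OVA/PM, so that all groups overlapped with PBS/PBS. By mean log2 level, in contrast, the PBS/PBS arrays lay between 10.35 and 10.81. Every array labelled OVA (11.05 to 11.37) and every OVA/PM array (up to 11.23) lay above this range, as for the 6 called receptor genes. The arrays labelled PM (10.61 to 11.09) overlapped with PBS/PBS. The part of these markers in the receptor changes was not tested. The genes in parentheses here and in the next lists were named after their values were seen.

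Mast cells, basophils and natural killer cells also carry some of these receptors. Of 10 mast cell and basophil markers 5 were tested, and in OVA/PM 1 rose (Hdc) and 2 fell (Kit and Tpsb2), while Kit alone fell in the arrays labelled OVA and 0 were called under labelled PM. Their sum was 9180 to 10516 in PBS/PBS, 9324 to 9635 under labelled PM, 6612 to 8510 under labelled OVA and 6858 to 8206 in OVA/PM. Of 7 natural killer cell markers with a probe set 4 were tested, of which 2 rose in OVA/PM (Gzma and Nkg7), 1 (Nkg7) in the arrays labelled OVA and 0 under labelled PM. Their sum was 228 to 415 in PBS/PBS, 470 to 613 under labelled OVA, 619 to 851 under labelled PM and 577 to 810 in OVA/PM, with Klra8 and Eomes under the level throughout. Every exposed array thus lay above PBS/PBS for this list, and its part was not tested.

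Neutrophil markers spread widely within groups, and of 6 tested 1 rose in OVA/PM, 1 in the arrays labelled OVA and 0 under labelled PM. Their mean log2 level was 6.70, 7.40 and 9.41 in PBS/PBS, 9.11, 6.84 and 7.70 under labelled OVA, 6.80, 6.35 and 6.05 under labelled PM, and 7.18, 8.84 and 8.16 in OVA/PM. In PBS/PBS the summed intensities ran from 6361 to 45355, against 5990 to 47050 under labelled OVA and 2236 to 8072 under labelled PM, and from 8353 to 25414 in OVA/PM, with Elane under the level throughout. PBS/PBS replicate 3, highest for these markers, was also the highest PBS/PBS array for Fcgr1, Fcgr2b, Fcgr3, Fcgr4, Fcer1g, Fcer2a and Tyrobp. In the same way OVA replicate 2 was the lowest of its group for Fcgr1, Fcgr2b, Fcgr3, Fcgr4, Fcer1g and Tyrobp and for these markers. Their part in the spread was not tested.

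For Fcer2a the B cell markers are the nearest set. Of 7 with a probe set 6 were tested, and 3 rose in OVA/PM, 2 in the arrays labelled OVA and 0 under labelled PM. The sum over the list lay between 1608 and 3823 in PBS/PBS, between 3741 and 5868 under labelled OVA, between 2408 and 4207 under labelled PM and between 4139 and 6205 in OVA/PM, with Pax5 under the level on all arrays. PM replicate 1, the highest PM array for Fcer2a at 8.73, was also the highest of its group for these markers. T cell markers rose as well (6 of 8 tested in OVA/PM, 6 of 7 in the arrays labelled OVA), with sums of 664 to 1382 in PBS/PBS and 2295 to 2888 in OVA/PM. Dendritic cell markers summed to 1764 to 2054 in PBS/PBS and 1863 to 2143 under labelled PM. They reached 3542 to 4323 under labelled OVA and 4558 to 5075 in OVA/PM. By mean log2 level, labelled OVA overlapped with PBS/PBS. Plasma cell markers summed to 16894 to 19721 in PBS/PBS and 18719 to 19481 under labelled OVA. They reached 21137 to 34988 under labelled PM and 30219 to 40153 in OVA/PM. What these lists contribute was not tested.

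Endothelial markers fell, 6 of 7 in OVA/PM and 4 of 7 in the arrays labelled OVA, their summed intensity going from 43981 to 47332 in PBS/PBS to 26095 to 29293 in OVA/PM and 25988 to 33783 in the arrays labelled OVA. Fcgrt, which endothelium also expresses, did not pass in either comparison. Lung epithelial markers had mean log2 values of 12.44 to 12.57 on all arrays, with members called in both directions. Of 8 tested, 1 rose (Foxj1) and 2 fell (Aqp5 and Nkx2-1) in OVA/PM, and 1 fell (Nkx2-1) in the arrays labelled OVA. Striated muscle markers ranged from 8.63 to 12.07, with the lowest value in OVA/PM, where 3 of 8 fell against PBS/PBS, and their part was not tested. Eosinophil markers were of little use in these arrays, since Prg2, Epx, Ccr3 and Il5ra lay under the tested level on all 12.

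Across the 12 arrays the members formed a tight group without Fcgrt. Fcgr1 and Fcer1g had a Pearson r of 0.99, Fcgr3 and Fcgr4 one of 0.97, and Fcgr2b correlated most closely with Fcgr3 (0.94) and least with Tyrobp among the other myeloid members (0.77). Fcgrt had r between -0.43 and -0.29 with each of the others. These values span the 4 groups and share the arrays, so they describe the pattern and carry no p.

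Among 11415 genes, the nearest to Fcgr1 in pattern were Psme1, Ifi202b and Oas2 (r = 0.99 each), which are known as interferon-induced genes. Nearest to Fcgr2b were Cxcl9, Tnfaip8 and Fnip2 (r = 0.98 each), and to Fcgr3 Naip2, the leukocyte integrin chain Itgb2 and Cd84 (r = 0.99 each). Fcgr4 was closest to Vmp1, Slc37a2 and Cd300lf (r from 0.97 to 0.98) and Fcer1g to Rab32, Fxyd5 and Spi1 (r = 0.99 each). Spi1, which encodes PU.1, also stood near Tyrobp (r = 0.97), next to Alox5ap and Cd300a. Fcer2a was nearest to Stap1, H2-Oa and Apex1 (r from 0.96 to 0.98), the first being a B cell adaptor and the next a class II chain of B cells. For Fcgrt the nearest, Mnat1, Kdsr and Tshb, reached r from 0.86 to 0.87.

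The arrays were alike in scale, with medians of 4.84 to 5.03 and 49.6% to 50.4% of values at or above the tested level. No 2 of the 66 pairs of arrays were identical. The difference between the 3′ and 5′ probe sets of Gapdh, a sign of RNA quality, was -0.37 to 0.10 on the log2 scale, and overlapped between PBS/PBS and OVA/PM. OVA/PM replicate 3 stood apart in the hybridization controls, with BioC at 7.56 against 3.56 to 3.95 on the other 11 arrays and BioB at 6.65 against 4.45 to 4.68. Without it 5 of the 6 genes remained called in OVA/PM against PBS/PBS, all but Fcgr4. The number of arrays limits the precision of every value.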

How the data were processed

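The authors deposited 1 table of log2 intensities for 45101 probe sets, computed with GCRMA (background correction by probe composition, quantile normalization over the arrays, median polish), which compresses low values. The processing notes also name MAS5, and versions are not given in the sources used here. Symbols came from the array's annotation (34958 probe sets with 1 symbol, 932 with several, 9211 with none).

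Each comparison was fitted with limma 3.58.1 in R 4.3.3 to the 2 groups alone, with Benjamini-Hochberg adjustment over all probe sets tested (22246 to 22688 per fit, 64 control probe sets left out). The filter asked for 3 arrays of a group at 4.93 or more, in place of the detection calls of the methods. A gene was counted by its probe set with the highest mean. Folds against a group wholly below 4.93 were computed from that level and are bounds. Exact permutation of 3 arrays against 3 gives no p under 0.1, and limma therefore served for single genes. The code was tested on simulated data.

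Alternatives left the filter out or set it at 8.65 (the 75th percentile), added an offset of 16, repeated quantile normalization, blocked on the replicate number, fitted all 4 groups at once, used SAM with 20 assignments or the second probe set of a gene, and omitted each array in turn. Exchanging the names OVA and PM, the further settings of the differences from Fcgr2b and those of the gene lists were added after the data were seen.

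Named genes are all members, up to 3 called genes with the lowest adjusted p per list and comparison, the 3 genes most correlated with each member, and markers that moved. Fcgbp in the arrays labelled PM was named after its value was seen. Members and gene lists were chosen with earlier results of these data known.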

Additional observations from a re-analysis of the deposited data

How the results depend on the processing

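The count of members called in OVA/PM against PBS/PBS stayed between 4 and 6 when single arrays were left out and was 4 to 7 under all other settings. The remaining counts depend on single arrays. Leaving out each array in turn gave 0 to 6 for OVA against PBS/PBS (0 without Control replicate 2 or OVA replicate 3, 1 without OVA replicate 1, 3 without Control replicate 1), 2 to 5 for OVA/PM against PM and 0 to 6 for OVA against PM. With no filter these counts were 3, 2 and 0, where more probe sets enter the adjustment. Fits with the replicate number as a replicate block called 0 for OVA against PBS/PBS, 3 for OVA/PM against PM and 6 for OVA/PM against PBS/PBS. The numbers were taken as names of the arrays only. Of 18 pairs with the same number, 3 deviated together at r over 0.1, and 2 of 12 arrays correlated best with their own number. With 3 arrays per group this check cannot exclude a batch shared by number. With the names OVA and PM exchanged, the counts became 0 (OVA against PBS/PBS), 6 (PM against PBS/PBS), 6 (OVA/PM against OVA) and 0 (OVA/PM against PM), and the 4 calls between OVA and PM turned to the opposite direction. The causes of these changes were otherwise not tested.

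Signs turned only in changes that were not called, when single arrays were left out. Against PBS/PBS these were Fcgrt in the arrays labelled OVA (-0.0943 to 0.108), and in those labelled PM Fcgr3 (-0.0607 to 0.349), Fcer2a (-0.16 to 0.55) and Tyrobp (-0.36 to 0.17). For OVA/PM against OVA they were Fcgr3 (-0.0775 to 0.410), Fcgr4 (-0.80 to 0.27), Fcer1g (-0.605 to 0.0422) and Tyrobp (-0.463 to 0.0483), and for the interaction Fcgr2b (-0.702 to 0.0439), Fcgr3 (-0.19 to 0.30), Fcgr4 (-0.36 to 0.81) and Tyrobp (-0.40 to 0.15). The order of the groups on the linear scale was the same for all 8 genes. Precision is limited by 3 arrays per group, and probe sets near 4.93 by their signal over background.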
